A study of Homo sapiens with 8 samples.

Results

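The general mRNA decay machinery was represented by 53 genes of the 19775 with a probe set of their own on the array. They were chosen by symbol: genes starting with CNOT, LSM or EXOSC and a digit, together with named decapping factors, deadenylases, exonucleases and exosome partners. Where a gene has several probe sets, the one brightest on average stands for it. PABPC4, which the choice also names, shares its probe sets with another symbol and was not analysed here. By role the genes comprise 11 of the CCR4-NOT complex, 4 other deadenylase or poly(A)-binding genes (PAN2, PAN3, PARN and PABPC1), 8 of decapping, 13 LSM genes, 2 exoribonucleases (XRN1, mainly cytoplasmic, and XRN2, nuclear), 10 of the exosome core and 5 of its catalytic and helper subunits (DIS3, DIS3L, SKIC2, SKIC3 and MTREX). The core group holds every EXOSC gene, including that of the associated nuclease EXOSC10.

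mRNA was measured in LNCaP and 22Rv1, established human prostate cancer cell lines, on 8 Affymetrix U133 Plus 2.0 arrays, with 1 array per line and treatment. Cells were untreated, or were held for 4 hours in 10 mM caffeine, used in the study to inhibit nonsense-mediated decay (NMD), or passed from that caffeine step into 4 hours of 2 μg/ml actinomycin D, a transcription blocker, either with caffeine or alone. All cells grew in the same serum-containing medium. Per the study's methods the cells were seeded in 4 plates, 1 for each of these conditions, and no condition was repeated within a line, so p-values measure only the spread between these arrays and not that between independent cultures. Values are deposited log2 signals, normalized so that every array has the same distribution, and a gene counted as detected at a log2 signal of at least 4. Of 8 prostate epithelial markers analysed, all 8 were detected on all 8 arrays. Of 5 markers of other cell types, COL1A2, PECAM1 and PTPRC were below the floor on all arrays, COL1A1 was detected on all 8 and DCN on 6.

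Most mRNAs are degraded from the poly(A) tail inward. PAN2-PAN3 and then CCR4-NOT shorten the tail, after which the message is either decapped by DCP2 with its activators and digested from the 5′ end by XRN1, or digested from the 3′ end by the exosome with the SKI helicase complex. NMD recognises messages with premature stop codons and hands them to the same enzymes, so some of these genes encode machinery that completes the process which caffeine was meant to block. The choice by symbol also takes in genes with other roles, among them LSM10 and LSM11, whose products belong to the U7 particle of histone mRNA processing.

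Log2 signals of pairs of arrays were subtracted in each line. Accumulation is the signal after caffeine less that of untreated cells. Degradation is the signal after actinomycin D with caffeine less that after the drug alone. Decay is the signal after the drug alone less that after the caffeine step, and the comparison with caffeine kept replaces the drug alone by the drug with caffeine. These differences share arrays and are not independent of each other. With 1 array per group a difference within a line has no test, and 1 log2 unit, a doubling of signal, served as the cut-off. A response shared by LNCaP and 22Rv1 was tested in limma, which took the lines as replicates, and p-values were adjusted over 21453 probe sets. Of the 53 genes, 52 were detected on all 8 arrays and tested. The other, LSM14B, a relative of the P-body protein gene LSM14A, reached the floor only on the LNCaP arrays for actinomycin D with caffeine (4.06) and alone (5.38).

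The upstream sequences of 3 genes are shown because their signals gave the lowest adjusted p-values of the set after caffeine or after actinomycin D. LSM11 encodes a subunit of the U7 particle that processes histone mRNA 3′ ends, and DCP1A and DCP1B encode paralogous activators of the decapping enzyme DCP2. The 250 bases before the start are from RefSeq on GRCh38.p14, at chr5:157743462-157743711 on the plus strand for LSM11, chr3:53347544-53347793 on the minus strand for DCP1A and chr12:2004458-2004707 on the minus strand for DCP1B. They end at the base before the annotated start of the gene, and capitals mark the motif matches named after them.
LSM11: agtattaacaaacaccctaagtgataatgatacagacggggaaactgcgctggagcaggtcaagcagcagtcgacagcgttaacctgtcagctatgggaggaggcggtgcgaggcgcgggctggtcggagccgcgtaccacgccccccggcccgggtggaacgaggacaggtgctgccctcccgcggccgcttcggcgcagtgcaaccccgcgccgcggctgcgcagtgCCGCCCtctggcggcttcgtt
DCP1A: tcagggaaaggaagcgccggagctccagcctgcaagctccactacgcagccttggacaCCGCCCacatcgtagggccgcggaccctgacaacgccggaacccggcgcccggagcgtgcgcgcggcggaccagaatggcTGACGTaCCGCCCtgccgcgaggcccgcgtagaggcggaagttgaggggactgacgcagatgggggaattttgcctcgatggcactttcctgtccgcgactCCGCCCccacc
DCP1B: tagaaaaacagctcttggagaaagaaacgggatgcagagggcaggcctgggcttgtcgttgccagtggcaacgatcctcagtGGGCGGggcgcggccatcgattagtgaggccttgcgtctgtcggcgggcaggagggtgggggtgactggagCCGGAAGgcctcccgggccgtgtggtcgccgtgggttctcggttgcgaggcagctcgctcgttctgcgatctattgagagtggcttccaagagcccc
The motifs named here were searched on both strands. A GC box (GGGCGG) was found in all 3, once in LSM11, 3 times in DCP1A and once in DCP1B. DCP1A also has a CRE core (TGACGT), and DCP1B an ETS core (CCGGAAG). Of the 45 genes of the set with an entry in the promoter table, 34 (75.6%) had a GC box, against 42.3% of 27305 promoters. The ETS core was found in 6 (13.3%, against 8.82%), the CRE core in 5 (11.1%, against 7.42%), the E-box CACGTG in 4 (8.89%, against 6.49%) and CCAAT in 17 (37.8%, against 33.0%). The ATF4 site TGATGCAA was in 0 of the 45 and in 0.820% of all promoters. The 27305 promoters were not limited to genes on the array or detected here, so the shares are not set against a matched background. These matches are a description of letters and not of binding.

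After caffeine most of the decay machinery stayed near its untreated level. The 52 detected genes had a median accumulation of 0.13 (LNCaP) and 0.01 (22Rv1), beside -0.02 and -0.02 over all detected genes. Only 1 gene was higher by at least 1 in LNCaP and 2 were in 22Rv1, while 2 and 4 were lower. Over all detected genes 5.19% were that much higher and 3.7% lower in LNCaP, and 8.41% and 6.12% in 22Rv1, so the counts of the set lie near or below these shares. LSM11 passed the cut-off upward in both lines, and DCP1B and EXOSC4 downward in both. Over all genes 258 of 10178 passed it upward and 138 downward in both. In limma 0 of the 52 genes were called, with 12 at an unadjusted p under 0.05 (7 higher and 5 lower). That unadjusted threshold was passed by 1926 of all 10842 genes tested (1104 higher and 822 lower). Of all genes tested 0.0277% were called higher and 0% lower. With a minimum mean of 6, or with the arrays scaled on the hybridization controls, LSM11 was called higher, and with the mean over all probe sets of a gene DCP1B was called lower.

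LSM11 had log2 signals in LNCaP of 6.29 untreated, 7.68 after caffeine, 7.23 after actinomycin D with caffeine and 5.62 after actinomycin D alone. In 22Rv1 the signals were 6.32, 8.14, 7.86 and 6.17 in the same order. These are from 1 of the 4 LSM11 probe sets, and the others were below the floor on all 8 arrays, at 3.33 or less. In each line both arrays with caffeine were above both arrays without it. The accumulation was thus 1.39 in LNCaP and 1.82 in 22Rv1, for a joint estimate of 1.60 (standard error 0.23, adjusted p = 0.0691 from limma). LSM10, which encodes the partner of LSM11 in the U7 ring, had -0.56 and -0.10.

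The paralogues DCP1A and DCP1B differed in sign. DCP1B had signals of 7.38, 6.08, 5.31 and 4.97 in LNCaP and of 7.64, 6.10, 5.03 and 5.02 in 22Rv1, untreated, after caffeine, after actinomycin D with caffeine and after actinomycin D alone. Untreated cells had the highest signal in both lines, and the arrays after actinomycin D the lowest. Its accumulation was -1.30 and -1.54 (estimate -1.42, standard error 0.21, adjusted p = 0.0691 from limma). DCP1A had 0.57 and 0.60 (adjusted p = 0.205 from limma), although its other probe set gave 0.37 in LNCaP and -0.02 in 22Rv1. The catalytic subunit DCP2 had 0.53 and 1.05, with 0.40 and 0.03 for another probe set. Of the further decapping activators, EDC3 had -0.69 and -0.67 by its brightest probe set but 0.08 and 0.34 by its second, which was nearly as bright. EDC4, PATL1 and DDX6 lay between -0.34 and 0.22, although a second probe set of PATL1 gave 0.94 and 0.92 (adjusted p = 0.120 from limma).

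**Figure D1:**
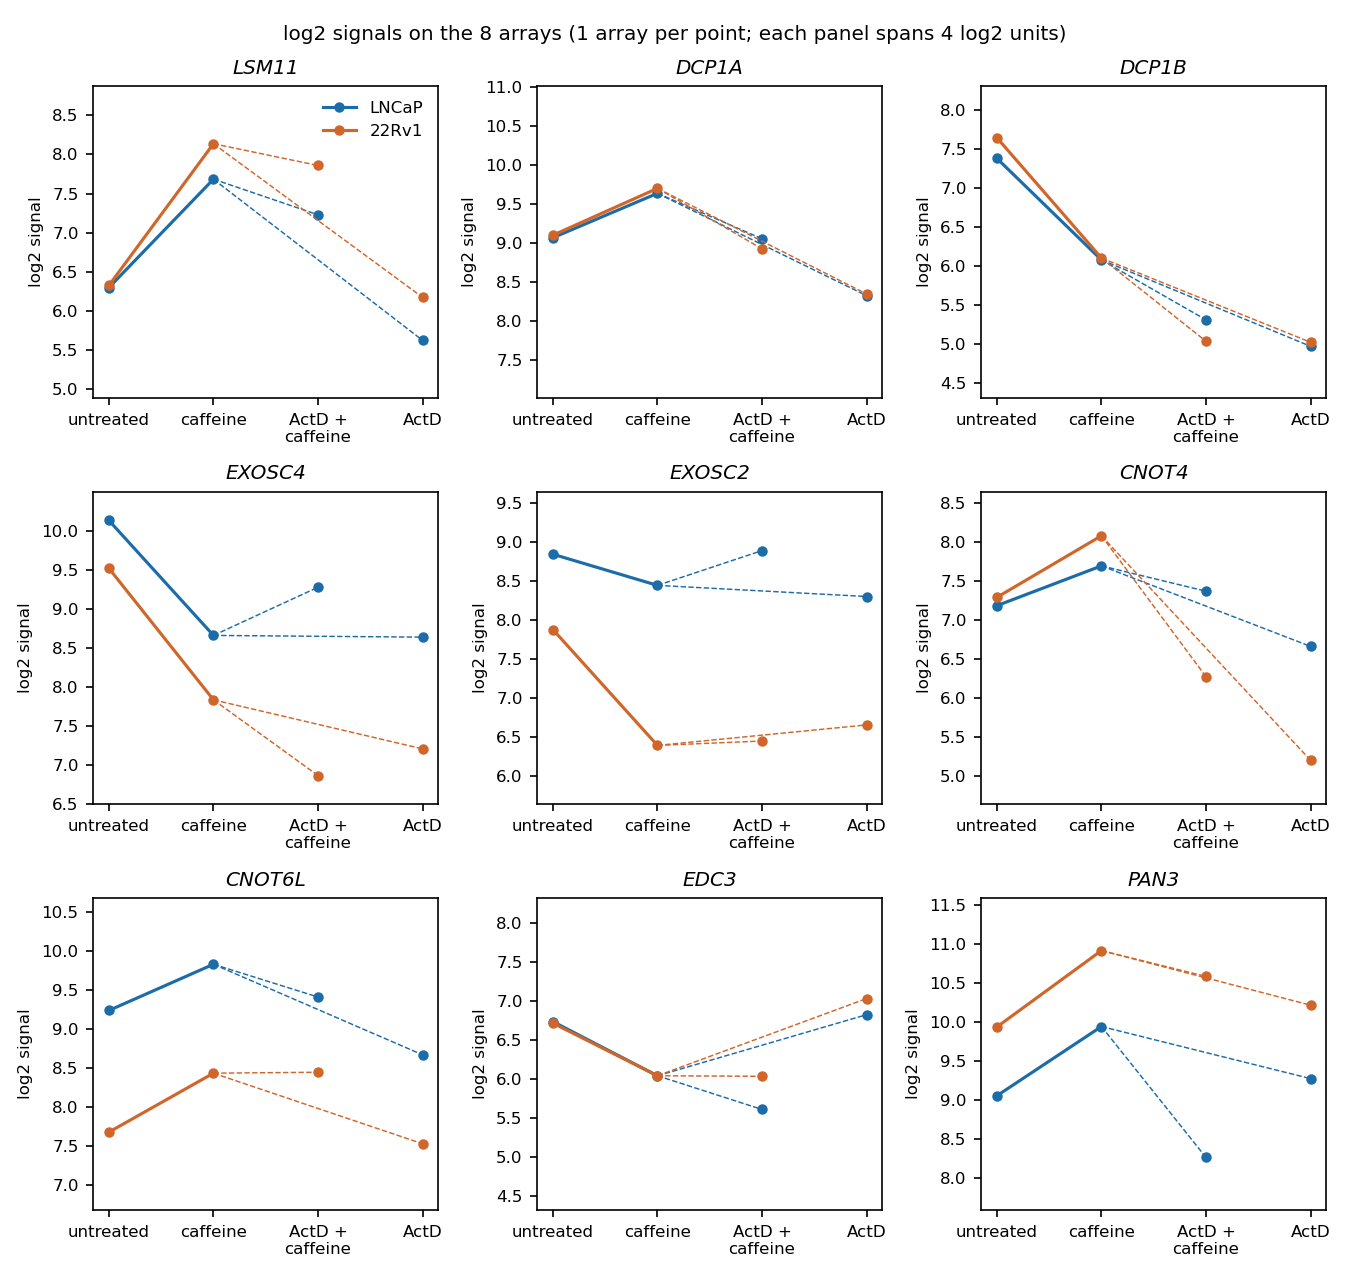
log2 signals of 9 genes of the decay machinery on the 8 arrays, by treatment and cell line, with 1 array per point and no error bars because no array was repeated. Solid lines join untreated to caffeine, dashed lines lead from caffeine to each actinomycin D (ActD) array, and LSM11 is highest on the 2 arrays with caffeine in each line (7.23 and 7.68 in LNCaP, 7.86 and 8.14 in 22Rv1).

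Several subunits of the exosome core had lower signals after caffeine. EXOSC4, a ring subunit, had 10.13, 8.66, 9.28 and 8.64 in LNCaP and 9.52, 7.83, 6.86 and 7.20 in 22Rv1, in the order used above. The untreated array was the highest in each line. Its accumulation was -1.47 and -1.69 (estimate -1.58, adjusted p = 0.169 from limma), and its other probe sets gave -1.25 and -1.44 in LNCaP and -1.36 and -1.62 in 22Rv1. EXOSC2, a subunit of the RNA-binding cap, was at 8.84 untreated and 8.45 after caffeine in LNCaP and at 7.88 and 6.39 in 22Rv1, and a further probe set gave -1.13 and -1.74. EXOSC6, another ring subunit, had -0.61 and -1.25, with -0.16 and -0.71 for a second probe set and -1.29 and 0.00 for another. The other 7 core genes ranged from -0.01 to 0.40 in LNCaP and from -0.10 to 0.64 in 22Rv1. The nuclease gene EXOSC10, which acts with the core in the nucleus, had 0.40 and 0.53, and DIS3, which carries the main catalytic activity, 0.14 and 0.69.

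By their brightest probe sets the deadenylase genes named here were above 0 or near it, without passing the cut-off. PAN3, the regulatory subunit of PAN2-PAN3, had 0.89 and 0.98, and the nuclease subunit PAN2 0.65 and 0.19. The catalytic CCR4 paralogues CNOT6 and CNOT6L had 0.99 and 0.37, and 0.59 and 0.76, and the CAF1 paralogues CNOT7 and CNOT8 0.14 and 0.31, and 0.55 and 0.17. PARN, a poly(A)-specific ribonuclease, had 0.60 and 0.52. Among helicase and exonuclease genes SKIC3, the scaffold of the SKI complex, had 0.94 and 0.73, the SKI helicase SKIC2 -0.09 and 0.19, and the nuclear helicase MTREX 0.19 and 0.18. XRN1 had 0.63 and -0.31 and XRN2 0.47 and -0.05, with opposite signs in the 2 lines. A second probe set of XRN1 did not have opposite signs, at 0.46 and 0.09. Further probe sets gave -0.49 for CNOT7 and -0.44 for MTREX in LNCaP and -0.12 for DIS3 in 22Rv1. Another of CNOT7 gave 0.60 in LNCaP and 1.18, past the cut-off, in 22Rv1, and the second of CNOT6 gave 0.02 and 0.25. PABPC1, the main cytoplasmic poly(A)-binding protein, stayed between 14.27 and 14.51 on the 8 arrays.

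**Figure D2:**
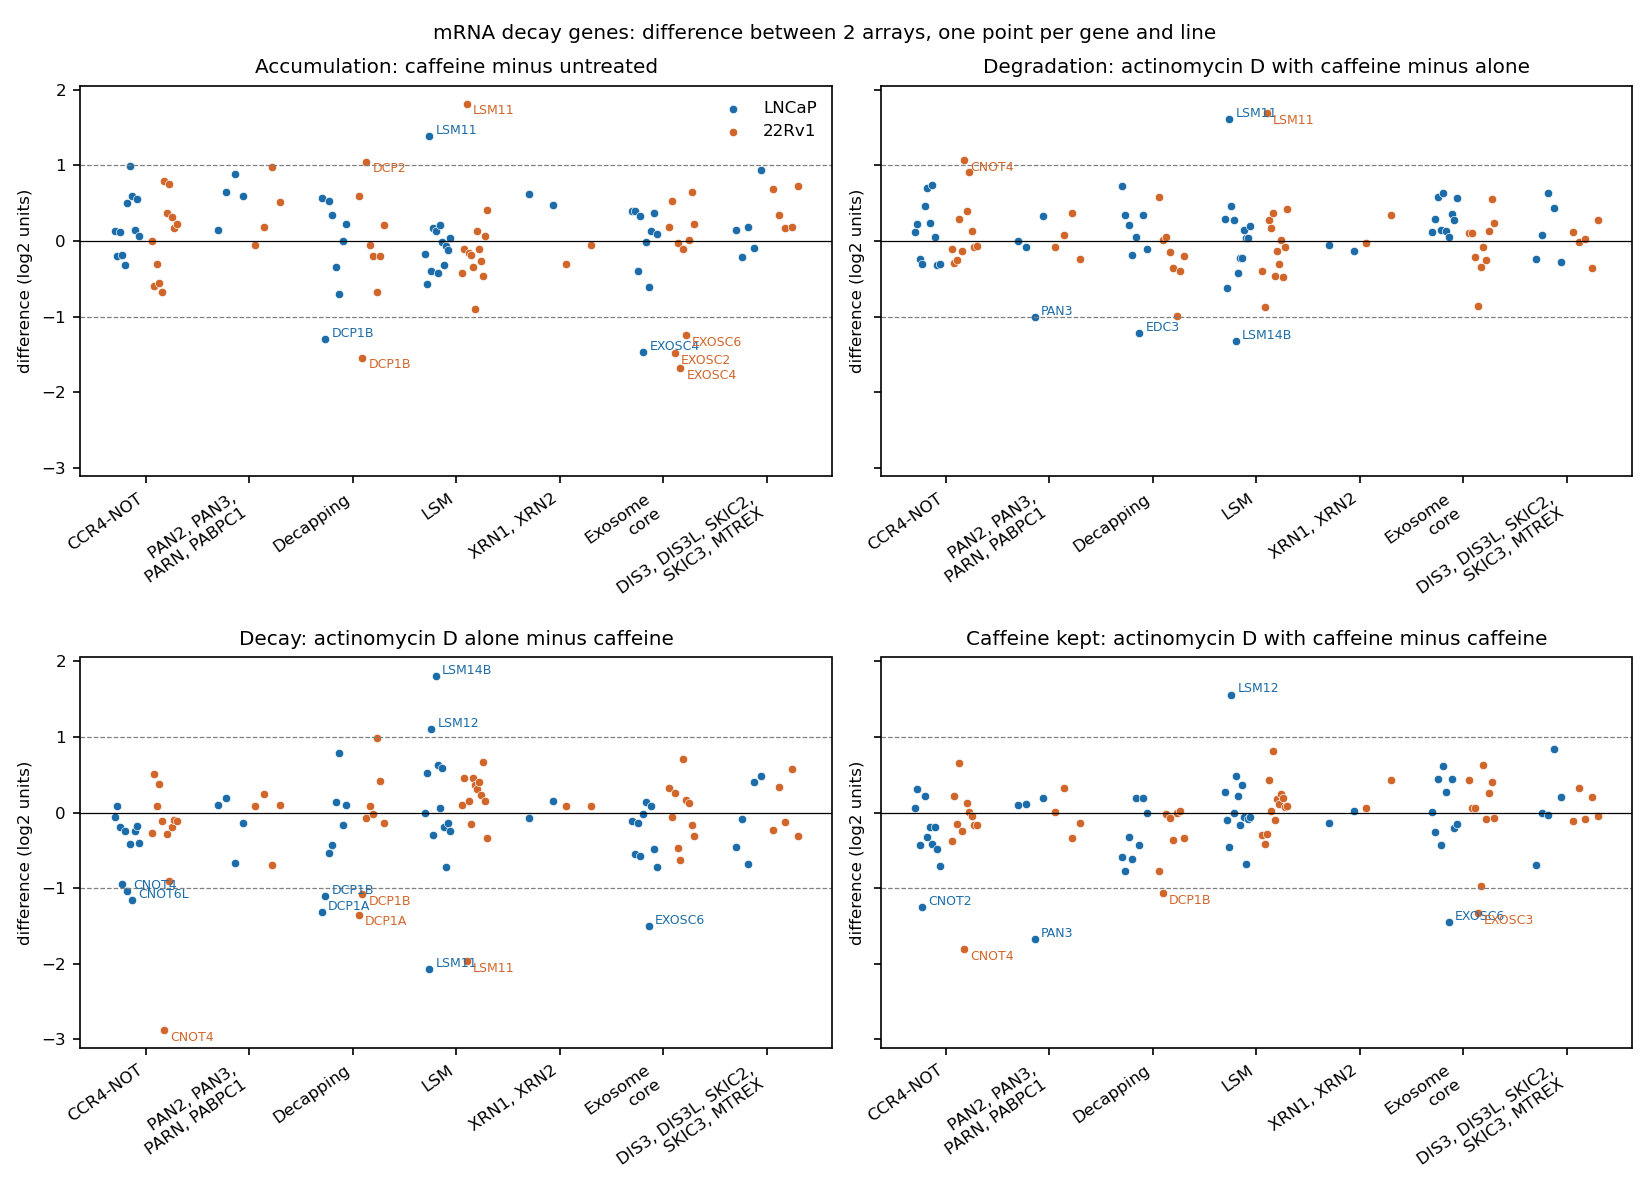
Differences in log2 units for the 53 genes grouped by role, in 4 comparisons, with 1 point per gene and line, each the difference between 2 arrays. Dashed lines mark 1 and -1, and genes past them are labelled. Most points lie between the dashed lines, and LSM11 lies past them in both lines in 3 of the 4 comparisons.

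In the degradation comparison, in which transcription is blocked in both arrays and caffeine differs, LSM11 stood apart. Its degradation was 1.61 in LNCaP and 1.69 in 22Rv1 (estimate 1.65, standard error 0.23, adjusted p = 0.20 from limma), and it was the only gene of the set higher by at least 1 in both lines, where 114 of 10058 genes were. The medians of the set were 0.13 and -0.04, beside 0.10 and -0.02 over all genes. In LNCaP 1 gene was higher by at least 1 and 3 were lower (5.32% and 3.17% of all genes), and in 22Rv1 2 were higher and 0 lower (3.16% and 1.21% of all genes). In limma 0 of 52 were called, and 0% of all genes were called higher and 0% lower. An unadjusted p under 0.05 was found for 5 of the 52 and for 732 of all 10842 genes.

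CNOT4, a ubiquitin ligase associated with CCR4-NOT, was higher with caffeine by 0.71 in LNCaP and 1.07 in 22Rv1, CNOT6L by 0.74 and 0.92 and DCP1A by 0.73 and 0.58, while DCP1B was at 0.34 and 0.01. Further probe sets gave -0.16 in LNCaP and -0.31 in 22Rv1 for CNOT6L and -0.25 in 22Rv1 for DCP1A. Of the 52 genes detected on all arrays EDC3, a scaffold of decapping complexes, had the lowest values in each line, at -1.21 and -0.997, while LSM14B was at -1.32 in LNCaP and below the floor in 22Rv1. The LNCaP signals of EDC3 were 6.74, 6.05, 5.61 and 6.83, and its 22Rv1 signals 6.72, 6.05, 6.04 and 7.04, in the order used above. By this probe set both arrays with caffeine were below both arrays without it in each line. The second probe set did not show this order: LNCaP cells gave signals of 5.91, 6.00, 6.09 and 6.21 and 22Rv1 cells of 6.32, 6.66, 6.13 and 6.60, with a degradation of -0.12 and -0.47. LSM10 had -0.62 and -0.87 and LSM2 -0.42 and -0.46. PAN3 was at -1.01 in LNCaP and 0.37 in 22Rv1, and the difference between the lines could not be tested with 1 array per line and treatment. All 10 exosome core genes were above 0 in LNCaP (0.05 to 0.64) and 5 of 10 were in 22Rv1, where 6388 of 10700 and 5042 of 10823 of all detected genes were. These are values of the brightest probe sets, and further ones were below 0 in LNCaP for EXOSC3 (-0.26) and EXOSC6 (-0.60). The array of LNCaP cells given the drug and caffeine had a mean 18S rRNA signal of 11.7, against 4.09 to 7.08 on the other 7 arrays, and the part of this in the LNCaP degradation values was not tested.

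After actinomycin D alone LSM11 and DCP1A had fallen relative to other transcripts. LSM11 fell by 2.02 (standard error 0.23, adjusted p = 0.0264 from limma), with -2.07 in LNCaP and -1.97 in 22Rv1, to below its untreated signal in both. DCP1A fell by 1.33 (standard error 0.19, adjusted p = 0.0348 from limma), with -1.31 and -1.35. DCP1A had signals of 9.07, 9.64, 9.06 and 8.33 in LNCaP and 9.10, 9.70, 8.93 and 8.35 in 22Rv1. Actinomycin D alone gave the lowest signal in both lines. Its other probe set was at -0.46 and 0.26 (estimate -0.10, adjusted p = 0.840 from limma). These were 2 of 52 genes, both lower, where 0.157% of all genes were called higher and 2.41% lower. Of the 52, 7 had an unadjusted p under 0.05, against 2254 of all 10842 genes. Without the array of LNCaP cells given the drug and caffeine 0 of the 52 were called, with adjusted p = 0.0517 for LSM11 and adjusted p = 0.0643 for DCP1A from limma. Over the alternatives in which each was tested, the adjusted p from limma ranged from 0.000781 to 0.387 for LSM11 and from 0.000806 to 0.840 for DCP1A. LSM11 was not tested with the mean of all probe sets, where it fell below the filter.

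CNOT4 and DCP1B were lower by at least 1 in both lines as well. CNOT4 had signals of 7.19, 7.70, 7.37 and 6.67 in LNCaP and 7.29, 8.08, 6.28 and 5.21 in 22Rv1, with actinomycin D alone lowest in both. Its decay was -1.03 and -2.88 (estimate -1.95, standard error 0.49, adjusted p = 0.100 from limma), and that of DCP1B -1.11 and -1.08 (adjusted p = 0.0645 from limma). CNOT6L had -1.16 and -0.90, with -0.83 and -0.75 for another probe set, while its paralogue CNOT6 had -0.42 and -0.28. EXOSC6 had -1.51 in LNCaP and 0.16 in 22Rv1, but a further probe set had signals of 2.86 and 6.44 on the same LNCaP arrays. EDC3 was at 0.78 and 0.99, but at 0.21 and -0.06 by its second probe set. LSM12 was at 1.10 and 0.16, LSM2 at 0.63 and 0.37 and LSM4 at 0.59 and 0.41, with -0.51 in LNCaP for a further probe set of LSM4. LSM14B had 1.81 in LNCaP, from a caffeine signal under the floor, so the size is not exact.

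By their brightest probe sets the exonuclease genes XRN1 and XRN2 and some deadenylase genes were close to 0 in this comparison, while PAN3 was at -0.67 and -0.70. XRN1 had -0.08 and 0.09, XRN2 0.15 and 0.09, PABPC1 0.10 and 0.09, PAN2 0.19 and 0.24, CNOT7 -0.24 and -0.19 and CNOT8 -0.17 and -0.09. Other probe sets of CNOT7 gave 0.85 and 0.35 for LNCaP, and 0.25 and 0.62 for 22Rv1. Those of CNOT8 were lower than its brightest, at -0.56 and -0.36 for LNCaP, and -0.30 and -0.68 for 22Rv1. The medians of the set were -0.16 in LNCaP and 0.08 in 22Rv1, beside -0.09 and 0.03 over all genes. In LNCaP 2 genes were higher and 6 lower by at least 1 (4.67% and 11.9% of all genes), and in 22Rv1 0 were higher and 4 lower (3.16% and 10.5%). In both lines 602 of 10168 genes were lower by at least 1 and 73 higher. These are levels relative to the other transcripts on an array: the 24 poly-A control probe sets, from RNA added before labelling, were higher after actinomycin D alone than after caffeine with means of 1.53 (LNCaP) and 1.18 (22Rv1). Scaled on those controls all genes shift down by these amounts, the medians of the set become -1.68 and -1.09, and 50 of 52 genes are called lower.

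With caffeine kept through the actinomycin D step, LSM11 had -0.46 and -0.28, against the -2.07 and -1.97 without it. DCP1A had -0.58 and -0.77, DCP1B -0.77 and -1.07, CNOT6L -0.42 and 0.01, and CNOT4 -0.33 in LNCaP and -1.81 in 22Rv1. In 22Rv1 further probe sets gave 0.01 for DCP1A and -0.35 and -0.47 for CNOT6L. The CNOT6L probe set at -0.35 in 22Rv1 gave -0.99 in LNCaP, where its decay without caffeine was -0.83. No gene of the set passed 1 in both lines, where 39 of 10151 genes were higher and 225 lower. PAN3 had -1.68 and -0.33, CNOT2, a scaffold subunit of CCR4-NOT, -1.24 and 0.66, EXOSC6 -1.45 and -0.08, and EXOSC3, a cap subunit of the exosome, -0.42 and -1.33. Further probe sets of EXOSC3 gave -1.15 and -1.80 in 22Rv1. A second probe set of CNOT2, nearly as bright, was lower in both lines, at -0.73 and -0.93, and those of EXOSC6 gave -0.36 and 0.48, and 3.53 and -0.63. The LNCaP values use the array with the high 18S rRNA signal, which was 7.62 above that after caffeine in LNCaP against 1.91 in 22Rv1, and its part in them was not tested. LSM12 had 1.56 and 0.44, and 0.48 and 0.18 for its second probe set. The medians were -0.06 and -0.01, beside 0.00 and 0.02 over all genes. In LNCaP 1 gene was higher and 3 lower by at least 1 (4.69% and 8.54% of all genes), and in 22Rv1 0 and 3 (1.93% and 7.14%). In limma 0 of 52 were called, and 0% of all genes were called higher and 0% lower. An unadjusted p under 0.05 was found for 5 of the 52 and for 1278 of all 10842 genes. Scaled on the poly-A controls, which were higher by 1.14 and 0.77 here, 37 of the 52 were called lower.

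Many of these genes differed between the cell lines. Here the lines are the groups compared and the 4 treatments, with 1 plate each per line, stand in for replicates. Over the 4 treatments 26 of the 52 genes were called between LNCaP and 22Rv1, 14 higher in LNCaP and 12 lower. An unadjusted p under 0.05 was found for 29 of the 52 and for 6674 of all 10842 genes. Of all genes tested 28.5% were called higher and 26.8% lower, so the set lies close to that background. Scaled on the poly-A controls the split became 20 higher and 2 lower, and on the hybridization controls 15 and 6. Without the caffeine arrays 17 were called, and without the arrays for actinomycin D alone 14. Untreated cells alone gave 4 genes higher by at least 1 in LNCaP and 3 lower, beside 19.5% and 18.5% of all genes, with medians of -0.07 for the set and 0.02 for all genes.

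Deadenylases of the first step were lower in LNCaP. PAN2 had 7.84, 8.49, 8.60 and 8.68 in LNCaP and 9.81, 10.00, 10.32 and 10.24 in 22Rv1, without overlap. It was lower in LNCaP by an estimate of -1.69 (standard error 0.15, adjusted p = 0.000384 from limma). PAN3 had 9.06, 9.95, 8.27 and 9.28 in LNCaP and 9.94, 10.92, 10.59 and 10.22 in 22Rv1, so that the lines overlapped by a narrow margin (estimate -1.28, adjusted p = 0.0108 from limma). In CCR4-NOT the 5 genes lower in LNCaP were CNOT2 (-1.10), CNOT6 (-0.83), CNOT3 (-0.64), CNOT11 (-0.53) and CNOT8 (-0.51), and the 3 higher were CNOT6L (1.27), CNOT10 (1.01) and the scaffold CNOT1 (0.68). Of the decapping genes DCPS, the scavenger of cap fragments, had -1.01 and the helicase DDX6 -0.60, and the other 6 were not called by their brightest probe sets. Further probe sets were called higher in LNCaP for DCP2, by 1.67 (adjusted p = 0.000477 from limma) and 1.21 (adjusted p = 0.00271 from limma), and for PATL1, by 0.98 (adjusted p = 0.00253 from limma). DCP1A had an estimate of 0.00 (standard error 0.13) and DCP1B one of -0.02 (standard error 0.15).

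**Figure D3:**
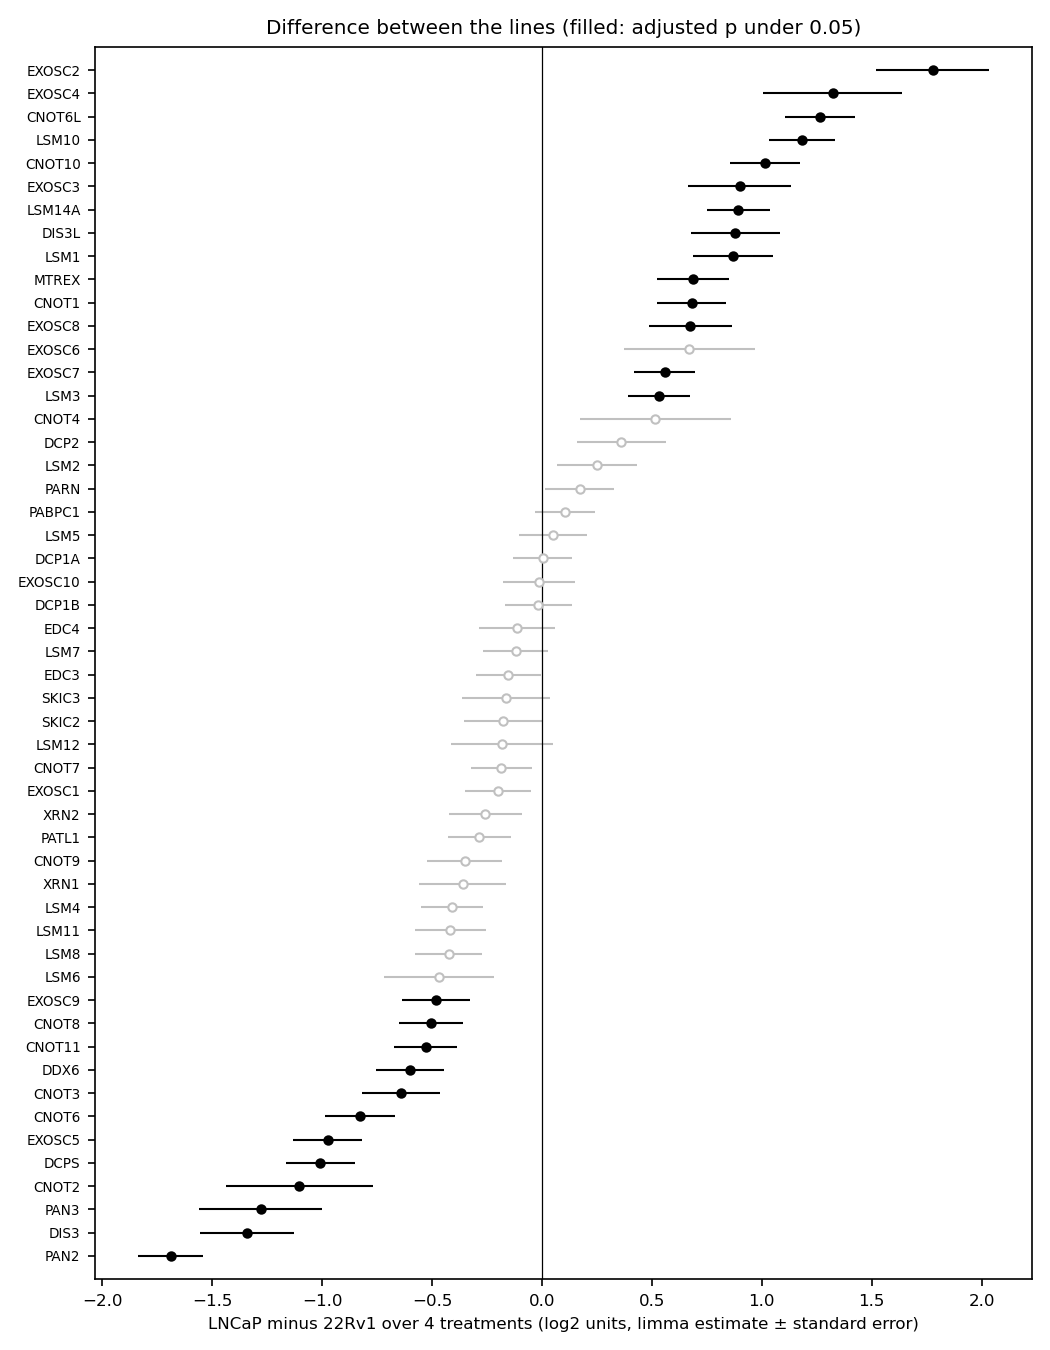
Estimated difference between LNCaP and 22Rv1 over the 4 treatments for the 52 genes tested, in log2 units, with standard errors from limma. Filled points have an adjusted p under 0.05: 14 lie above 0, led by EXOSC2 at 1.78, and 12 below, led by PAN2 at -1.69.

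Of the 10 exosome core genes 5 were called higher in LNCaP and 2 lower. EXOSC2 had 8.84, 8.45, 8.89 and 8.30 in LNCaP and 7.88, 6.39, 6.45 and 6.66 in 22Rv1, without overlap (estimate 1.78, standard error 0.26, adjusted p = 0.00237 from limma). EXOSC4 differed by 1.32, EXOSC3 by 0.90, EXOSC8 by 0.67 and EXOSC7 by 0.56, while EXOSC5 (-0.98) and EXOSC9 (-0.48) were lower. The untreated differences of EXOSC2 and EXOSC4 were 0.97 and 0.61, smaller than those over the 4 treatments. The catalytic paralogues went in opposite directions: DIS3 was lower in LNCaP (-1.34, adjusted p = 0.00324 from limma) and DIS3L, its cytoplasmic relative, higher (0.88, adjusted p = 0.0132 from limma). MTREX was higher by 0.69. Of the LSM genes LSM10 (1.18), LSM14A (0.89), LSM1 (0.87), which marks the cytoplasmic LSM ring, and LSM3 (0.53) were called higher and 0 of the 12 tested were called lower by their brightest probe sets. The median of the 12 was -0.03, and LSM6 (-0.47), LSM8 (-0.42), LSM11 (-0.42) and LSM4 (-0.41) were not called. A second probe set was called lower for LSM8 (-1.88, adjusted p = 0.000723 from limma) and higher for LSM12 (1.11, adjusted p = 0.0141 from limma). Scaled on the poly-A or hybridization controls, every line estimate moves up, not only those near 0 such as DCP1A and DCP1B. The means of these controls were lower in LNCaP by 0.45 and 0.21. Of the genes tested, 2 were then called lower on the poly-A controls and 6 on the hybridization controls, against 12 without scaling. Most genes given above as lower in LNCaP thus depend on the scaling for their call on the poly-A controls.

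Probe sets of the same gene did not always give the same answer between the lines. Of the 26 genes not called by their brightest probe set, 7 had another that was called, among them CNOT7 (0.72 and 1.63), CNOT9 (0.96 to 1.70) and XRN1 (-0.56). In 3 genes probe sets were called in opposite directions. LSM14A, which encodes a P-body protein, was higher in LNCaP by 0.89 with one probe set and lower by an estimate of -1.72 with another, at 7.39 to 8.10 in LNCaP and 9.46 to 9.69 in 22Rv1, and by one of -0.51 with a further one. CNOT6L gave 1.27 and -2.31, and CNOT6 -0.83 and 0.73. DIS3 was lower in LNCaP with all 4 tested probe sets but by different amounts: 2 of them gave -1.34 and -1.25, and the other 2, which were below the floor on all 4 LNCaP arrays (2.43 to 3.90) and at 6.66 to 7.58 in 22Rv1, gave -4.24 and -4.11. The sizes of these last differences are not exact. A direction for LSM14A, CNOT6L or CNOT6 as a whole cannot be given from these values.

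**Figure D4:**
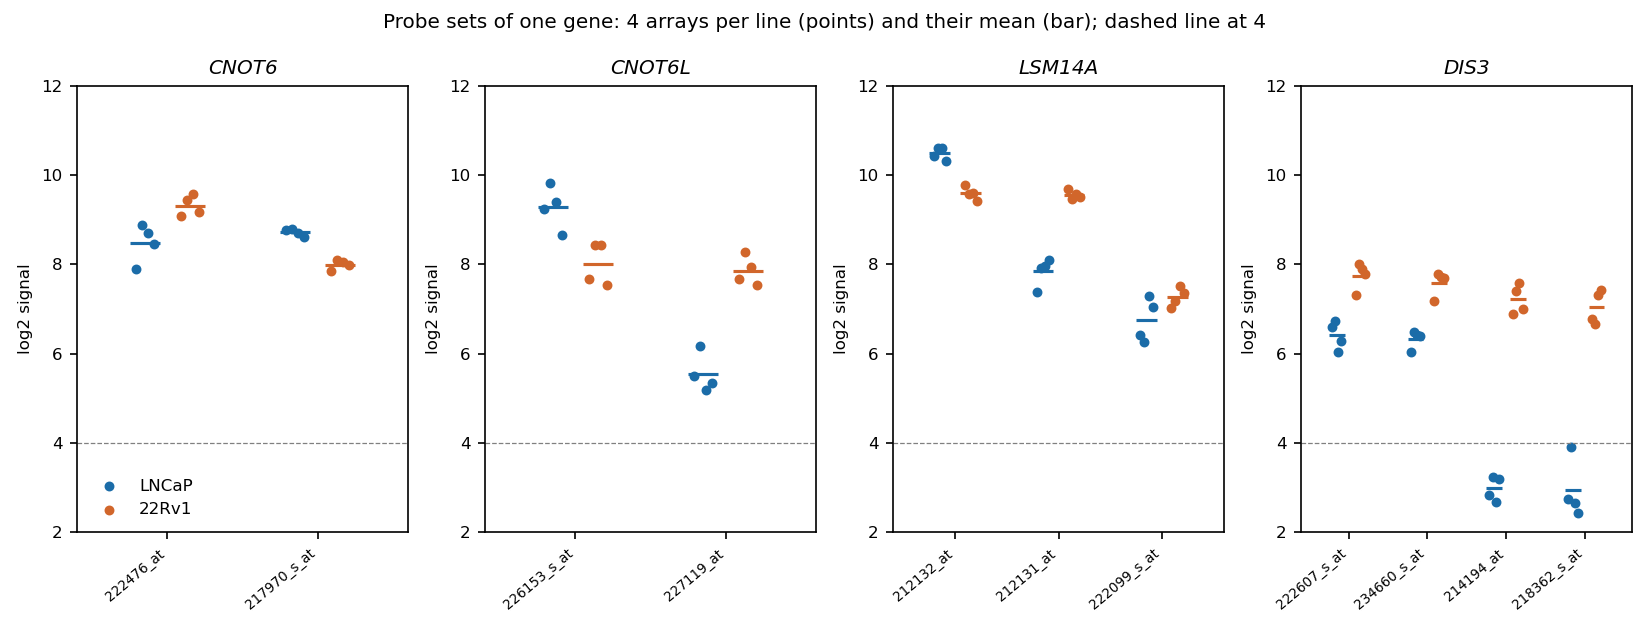
log2 signals of the tested probe sets of CNOT6, CNOT6L, LSM14A and DIS3, with 4 arrays per line as points and their mean as a bar; the dashed line is the detection floor of 4. In the first 3 genes the order of the lines turns between probe sets, and in DIS3 the LNCaP points of 2 probe sets lie under the floor at 2.43 to 3.90.

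Other genes of the pathway were read from a list of 22 cofactors, of which 21 were analysed and 20 tested. Decay was called in 3 of the 20, all lower, beside the 2.41% of all genes. ZCCHC8, a subunit of the nuclear exosome targeting complex, fell by 2.71 (adjusted p = 0.0263 from limma), with 9.07 after caffeine and 6.40 after actinomycin D alone in LNCaP and 9.67 and 6.91 in 22Rv1. ZCCHC7, of the TRAMP polyadenylation complex, fell by 1.76 (adjusted p = 0.0371 from limma), while a dimmer probe set had 0.03 and 0.15. EIF4ENIF1, which binds the cap-binding protein and brings decapping factors to mRNA, fell by 2.56 (adjusted p = 0.0309 from limma) to signals below the floor (3.52 and 3.61), so the sizes of its decay and degradation are not exact. Without the array of LNCaP cells given the drug and caffeine 0 of the 3 were called (adjusted p from 0.0507 to 0.0704 in limma), and 0 were with the compared arrays alone, with no filter or without the cell line as a block. All 3, and the decapping coactivator gene PNRC1, were also higher in the degradation comparison by at least 1 in both lines, at 1.5 and 1.98 for ZCCHC8, 1.90 and 1.32 for ZCCHC7, 2.18 and 1.09 for EIF4ENIF1 and 1.94 and 2.11 for PNRC1. PELO, which rescues stalled ribosomes, and TENT4A, a poly(A) polymerase, had decay values of -1.15 and -2.15, and of -1.68 and -1.03. The decay of PNRC1 was -1.32 and -3.34. In all, 6 of the 20 cofactors had a decay of -1 or lower in both lines, where 602 of 10168 genes did. PELO was also lower with caffeine kept, at -1.37 and -2.55. After caffeine DXO, a decapping enzyme for faulty caps, had 1.32 and 1.06. TUT7, a uridylyltransferase, had -1.09 and -2.90, but 0.69 and -0.44 by a second probe set and 1.49 and -0.09 by another. The dimmest TUT7 probe set with a mean above the floor gave 1.91 and 2.10. Its untreated signals were under the floor (3.75 in LNCaP and 2.93 in 22Rv1), so these sizes are not exact.

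Of 14 NMD factors listed as the most similar group, 8 were analysed and tested, and 0 were called in accumulation, degradation, decay or with caffeine kept (4, 2, 3 and 0 at an unadjusted p under 0.05 in limma). Of all 10842 genes tested 1926, 732, 2254 and 1278 had such an unadjusted p in the same comparisons. In LNCaP and 22Rv1 the NMD factors had median accumulations of 0.46 and 0.43 and median degradations of 0.46 and 0.24, where the decay machinery had 0.13 and 0.01, and 0.13 and -0.04. No test of the difference between the groups was made.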

How the data were processed

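mRNA was measured in 2 cell lines and 4 treatments on 8 arrays. The authors deposited log2 signals after gcRMA (background correction, quantile normalization over the arrays, 1 value per probe set); RMA and GCRMA stand in the submitters' processing notes with no version. Arrays give no depth, and their number limits the precision.

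Of 54675 probe sets 41097 have 1 symbol in the platform annotation, 1801 several and 11777 none. All differences were computed here. limma 3.58.1 in R 4.3.3 was fitted to the 21453 probe sets whose mean reached 4, with cell line as a block, or treatment for the line difference. It had 3 residual degrees of freedom (prior 2.93), and p-values were adjusted by Benjamini-Hochberg. A simulation of the accumulation comparison checked only that the median estimate of planted changes was near their size. The rest used python 3.11.15, pandas 2.3.3, numpy 2.4.6 and matplotlib 3.10.9.

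The genes and lists were chosen with earlier results of these data known. Members named are those called, the 4 highest and 4 lowest per comparison (5 for the line difference) and fixed paralogue pairs; cofactors are named at 1 or more in both lines or when called. Probe sets of the named genes that differ in sign or by 1 are given where they bear on a result. EXOSC8, EXOSC9 and other genes given to complete a group were chosen after their values were seen.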

Additional observations from a re-analysis of the deposited data

How the results depend on the processing

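Scaling on spiked controls moved the medians most. On the poly-A controls they were 0.51 in LNCaP and 0.37 in 22Rv1 for degradation, -1.68 and -1.09 for decay, -1.19 and -0.78 with caffeine kept, and 0.59 for the untreated difference. On the hybridization controls those in LNCaP were 0.64 for accumulation, -0.78 for decay and -0.55 with caffeine kept. For accumulation 1 gene instead of 0 was called with the mean of all probe sets, with a minimum mean of 6 and on the hybridization controls. For decay 0 instead of 2 were called with no filter, on the compared arrays alone, without the cell line as replicate block and without the LNCaP array of drug plus caffeine, 1 with the mean of all probe sets, 5 on the hybridization controls and 50 on the poly-A controls. The gene called with the mean of all probe sets, for decay as for accumulation, was DCP1B, which has only 1 probe set. LSM11 fell below the filter in that setting and was not tested. With caffeine kept 37 were called on the poly-A controls. For the line difference 15 were called with no filter, 14 without actinomycin D alone, 17 without caffeine and 20 to 28 in the other settings. The cause of these changes was not tested, beyond the shift that each scaling makes by construction.

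On the poly-A controls decay turned from above 0 to a call below 0 for LSM2 (-0.85), LSM4 (-0.85), SKIC2 (-0.86), PAN2 (-1.14), DIS3L (-1.22), XRN2 (-1.23), PABPC1 (-1.26), SKIC3 (-1.27) and XRN1 (-1.35), and so did SKIC3 (-0.87) and PABPC1 (-0.90) with caffeine kept. A further 94 estimates changed sign over all settings without a call on either side, 21 of them on the poly-A controls, where decay became -0.46 for EDC3 and -0.72 for LSM12. The line difference turned with the mean of all probe sets for CNOT6L (-0.33), LSM14A (-0.45), LSM3 (-0.41) and CNOT7 (0.39), and with other probe sets for CNOT6L (-2.31), LSM14A (-1.72 and -0.51), CNOT7 (0.72 and 1.63) and CNOT6 (0.73). Of the remaining values, mostly of 1 gene in 1 setting and sign changes without a call included, 1323 counted as unchanged, 149 as moved, 94 lost a call and 38 gained one. Moved means beyond the spread or, for counts of genes past the cut-off, beyond a fixed ratio. The labels give no replicate numbers: the block is the line in the treatment comparisons and the treatment in the line difference. Responses of a single line cannot be tested, and leaving out a line leaves no residual degrees of freedom.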

Other observations

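Some probe sets that do not represent their gene moved more than the one that does; they were chosen after their values were seen, and limma called none of the differences given here. For CNOT9, a CCR4-NOT subunit at 0.07 and 0.22 after caffeine by its main probe set, 3 further probe sets gave -0.70, -0.71 and -0.92 in LNCaP, while the same probe sets gave -1.37, -0.52 and -1.43 in 22Rv1. Their decay was 1.18, 0.89 and 0.66 in LNCaP and 1.3, 0.77 and 1.64 in 22Rv1, with adjusted p of 0.0742, 0.0969 and 0.100 from limma. CNOT2 had a second probe set with a decay of -1.16 and -1.15, where the main one gave -0.95 and 0.37 (adjusted p = 0.0514 from limma for the second). CNOT3, at -0.32 and -0.67 after caffeine by its main probe set, gave 1.11 and 1.24 by a second, from signals of 3.71 and 3.43 under the floor to 4.82 and 4.67 (adjusted p = 0.130 from limma).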
